A study of Homo sapiens with 4 samples.

Results

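The tubulin genes were followed on 4 arrays, 1 for each combination of 2 human cancer cell lines and 2 transfections. Members were the 10 genes TUBA1A, TUBA1B, TUBA1C, TUBA4A, TUBB, TUBB2A, TUBB2B, TUBB3, TUBB4B and TUBB6, found by their symbol among the 43317 gene names of the array design. They comprise 4 alpha-tubulins and 6 beta-tubulins, and were represented by 16 of the 58201 gene probes. The colorectal line HCT116 and the lung line A549 were each transfected with Dharmafect1, either with the microRNA miR-891b or with the negative control NC1, so that every culture had received a small RNA. Cells were harvested as bulk cultures, and neither the dose, the time after transfection nor the number of cultures is given in the sources used here. The series concerns PSAT1 and the release of extracellular vesicles. Each of the 4 groups, 2 for HCT116 and 2 for A549, had 1 array, from 100 ng of total RNA. Differences within a line could not be set against a spread between cultures, and no p-value is given for them.

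Alpha- and beta-tubulin form the heterodimer from which microtubules polymerise, and each is encoded by several genes whose proteins differ mainly in their C-terminal tails. TUBA1B, TUBA1C, TUBB and TUBB4B are broadly expressed in dividing cells, TUBB3 and TUBB2B are best known from neurons, and TUBA4A and TUBB6 have more variable expression. Cells hold tubulin mRNA in balance with free tubulin through an autoregulatory decay of tubulin mRNAs during translation, which needs TTC5. Microtubules build the mitotic spindle and carry vesicle transport in interphase.

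The transfected microRNA is shown first, because its seed (bases 2 to 8, in capitals) sets which transcripts it can pair with directly. The mature sequence was taken from RefSeq (GRCh38.p14, chromosome X, 146001100 to 146001121, minus strand).
hsa-miR-891b: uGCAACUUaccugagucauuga
The complementary 7-base site, AAGTTGC, occurred in 0 of the 16 tubulin probes and in 229 of all 58201 gene probes (0.394%). Probes are 60 bases long and cover only a small stretch of each transcript, and sites elsewhere in the tubulin transcripts were not analysed here.

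Examples of the tubulin probes are given for the genes with the most negative and the most positive change in A549. Probe positions here and in what follows are on hg19. The TUBB4B probe (chromosome 9, 140137646 to 140137705, plus strand) and the dimmer TUBB2A probe (chromosome 6, 3154905 to 3154964, minus strand) have the sequences that follow.
TUBB4B probe: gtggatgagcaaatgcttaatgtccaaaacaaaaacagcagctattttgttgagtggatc
TUBB2A dimmer probe: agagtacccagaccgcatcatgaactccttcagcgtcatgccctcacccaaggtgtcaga
Whether a probe also bound transcripts of another tubulin gene was not tested, and the exon or untranslated region in which each probe lies was not analysed here.

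Levels are given as log2 of the processed signal minus the 75th percentile of its array, and a gene with several probes is represented by its brightest. A probe counts as measured in a line where Feature Extraction marked it as well above background on both arrays. Of the 10 genes, 9 were measured in HCT116 and 10 in A549. Between 44.7% and 50.3% of gene probes were well above background on the 4 arrays, and no gene spot was saturated. Each tubulin probe was printed at 1 spot. The error of a single spot was taken from probes printed at 5 or more measured spots, whose log2 difference between the arrays of a line had a median SD of 0.061 in HCT116 (276 probes) and 0.071 in A549 (287 probes). This SD covers spots only, not cultures or labelling. Both arrays of a line shared a slide and a scan, so transfections were compared within a slide, whereas line and slide cannot be told apart. The summed level of 6 A549 markers, in multiples of the 75th percentile, was 2201 to 3168 on the A549 arrays and 59.5 to 67.6 on the HCT116 arrays, and that of 6 HCT116 markers was 147 to 189 in HCT116 and 16.8 to 21.2 in A549. Single markers also differed between transfections: in A549, KRT81 changed by -1.64, ALDH3A1 by -1.17, CDH17 by 1.38 and CLDN3 by 1.03, and in HCT116, AKR1B10 changed by 4.47. CDH17, on the HCT116 list, was well above background in A549 alone. The spots of KRT81, ALDH3A1 and CDH17 lay in areas where many otherwise dim spots were bright on 1 array (stray signal), which could be any of the 4. Those of CLDN3 and AKR1B10 did not. Such areas held 10.5% of gene spots on the HCT116 miR-891b array and 2.20% on the HCT116 NC1 array. On the A549 miR-891b array they held 1.83%, and on the A549 NC1 array 0.02%.

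In A549, the tubulin genes differed between miR-891b and NC1 in opposite directions. The 4 alpha-tubulin genes and TUBB, TUBB4B and TUBB6 were lower with miR-891b by 0.73 to 1.26 on the log2 scale, whereas TUBB2A was higher by 0.90 and TUBB3 by 0.38. In HCT116 none of the 9 measured genes differed by 2-fold, and TUBB2A had the largest difference, at 0.58 higher. The median change over the genes was -0.81 in A549 and 0.14 in HCT116, against -0.06 and -0.04 over all measured genes. In A549 the genes TUBA1A, TUBA1B, TUBA4A and TUBB4B were lower by 2-fold or more, which is 4 of 10, while 5.57% of all 21335 genes measured there were at least 2-fold lower. None of the 10 was at least 2-fold higher, against 4% of all genes. In HCT116, 0 of 9 were at least 2-fold lower and 0 of 9 at least 2-fold higher, against 0.843% and 1.16% of 19105 genes. With normexp and quantile normalization, the all-gene counts in HCT116 went from 161 lower and 221 higher to 13 and 32.

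The count in A549 depended on how arrays were scaled. After quantile normalization 1 gene was at least 2-fold lower (TUBB4B) and 1 at least 2-fold higher (TUBB2A), and after normexp background correction with quantile normalization the counts were 0 and 1. Over all A549 genes, 1188 were at least 2-fold lower and 854 higher, against 1025 and 1014 with quantile normalization and 415 and 348 with normexp and quantile normalization. The direction of each A549 change was the same in each of the 7 other settings in which that gene was measured. Leaving out the filter on dim probes, or the probes in areas of stray signal, altered none of these values. The authors' values were nearly equal to them (median -0.82 against -0.81). These settings therefore bear little on the direction. In HCT116, TUBA1B and TUBB lay within 0.04 of 0 and changed sign with the scaling.

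**Figure D1:**
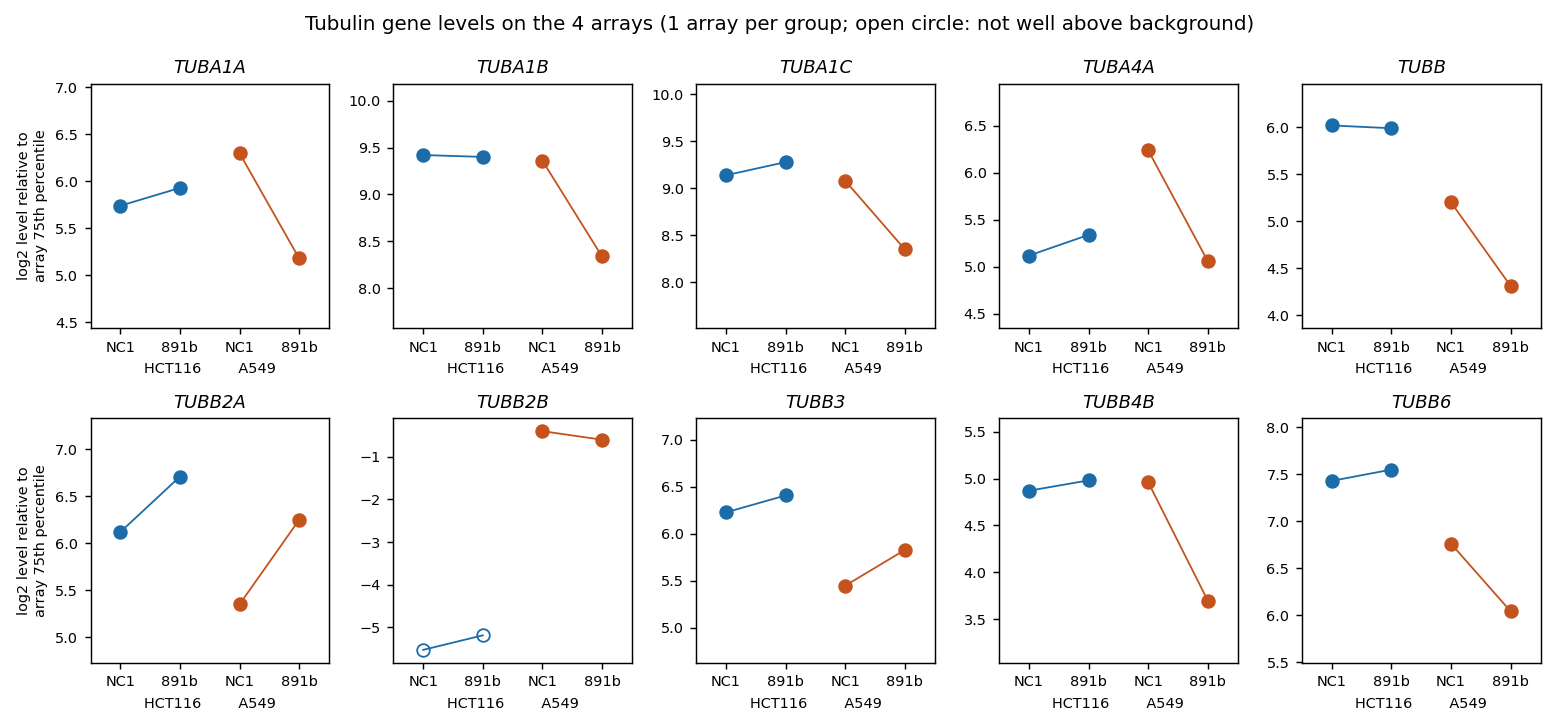
Each panel shows 1 tubulin gene at its brightest probe, with the log2 level relative to the array's 75th percentile on the y axis (a separate range per panel) and the 4 arrays on the x axis (HCT116 in blue, A549 in orange, lines joining NC1 to miR-891b). TUBB2B is open in HCT116, where it was not well above background; the A549 line slopes down for 8 genes and up for TUBB2A and TUBB3.

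Among the alpha-tubulins, TUBA1A, an isotype abundant in developing neurons, had levels of 5.74 in HCT116 NC1, 5.93 in HCT116 miR-891b, 6.30 in A549 NC1 and 5.18 in A549 miR-891b. A549 NC1 was thus the highest of the 4 arrays and A549 miR-891b the lowest. The change was 0.19 in HCT116 and -1.12 in A549, a 2.17-fold lower signal, and 4.15% of measured A549 genes had a more negative change.

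TUBA1B (chromosome 12, 49521633 to 49521692), the ubiquitous alpha-tubulin, was at 9.42 and 9.40 in HCT116 NC1 and miR-891b and at 9.36 and 8.34 in A549 NC1 and miR-891b. The HCT116 arrays differed by less than the spot SD, and A549 miR-891b was lower than the other 3 arrays. The A549 change was -1.02, or 2.03-fold lower.

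TUBA1C, encoded near TUBA1A and TUBA1B on chromosome 12, was measured by 2 probes. At the brighter one (49667030 to 49667089) the levels were 9.14, 9.28, 9.08 and 8.35 in HCT116 (NC1, miR-891b) and A549 (NC1, miR-891b), in that order. At the other (49666285 to 49666344) they were 5.79, 6.09, 6.51 and 5.34. Both probes were lowest on A549 miR-891b, with A549 changes of -0.73 and -1.17, so that only the dimmer probe passed 2-fold. Their HCT116 changes were 0.14 and 0.31.

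TUBA4A (chromosome 2) gave the closest match between probes. At its brightest probe (220115070 to 220115129) the levels were 5.12 in HCT116 NC1, 5.34 in HCT116 miR-891b, 6.24 in A549 NC1 and 5.06 in A549 miR-891b. A549 NC1 stood above the other 3 arrays, and A549 miR-891b was close to HCT116 NC1. All 3 probes were at least 2-fold lower in A549, with changes from -1.27 to -1.11, and the HCT116 changes ran from 0.21 to 0.23.

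Among the beta-tubulins, TUBB4B, a broadly expressed isotype, had the most negative change in A549. Its single probe was at 4.87 in HCT116 NC1, 4.98 in HCT116 miR-891b, 4.96 in A549 NC1 and 3.70 in A549 miR-891b. The first 3 arrays lay within 0.11 of each other and A549 miR-891b was 2.39-fold below A549 NC1, a change of -1.26 against 0.11 in HCT116. A more negative change was found for 3.07% of measured A549 genes.

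TUBB, the main beta-tubulin of many dividing cells, was measured by 3 probes on chromosome 6. The brightest (30692703 to 30692815, a span longer than the probe) was at 6.02 and 5.99 in HCT116 NC1 and miR-891b and at 5.20 and 4.31 in A549 NC1 and miR-891b. The order was HCT116 above A549, and within A549 NC1 above miR-891b, with both HCT116 arrays closer than the spot SD. The A549 change was -0.90 at this probe and at the probe at 30692522 to 30692581, and -1.26 at the probe at 30691905 to 30691964. All 3 HCT116 changes lay between -0.04 and 0.01.

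TUBB6 (chromosome 18, 12326476 to 12326535), also a beta-tubulin, was at 7.43 and 7.55 in HCT116 NC1 and miR-891b. In A549 NC1 and miR-891b it was at 6.76 and 6.04. Its A549 change of -0.73 did not reach 2-fold.

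TUBB2A had a higher signal under miR-891b in both lines at both of its probes, as TUBB3 did at its single probe. At the brighter probe (chromosome 6, 3154035 to 3154094, minus strand) the levels were 6.12 in HCT116 NC1, 6.71 in HCT116 miR-891b, 5.35 in A549 NC1 and 6.25 in A549 miR-891b. The miR-891b array was the higher one in each line. The changes were 0.58 in HCT116 and 0.90 in A549, with 96.1% and 94.8% of measured genes having a smaller value. At the dimmer probe the changes were 0.51 and 0.35, so the probes differed by 0.55 in A549 and by 0.07 in HCT116. The A549 size therefore depends on the probe, and the direction does not.

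TUBB3 (chromosome 16, 90002437 to 90002496), a class of beta-tubulin known from neurons and also found in carcinomas, was at 6.23 and 6.41 in HCT116 with NC1 and with miR-891b, and at 5.45 and 5.83 in A549. Its changes were 0.18 and 0.38, both above the spot SD and neither near 2-fold. TUBB2B (chromosome 6, 3224751 to 3224810), close to TUBB2A in sequence and position, was dim in HCT116, not well above background on either array. The A549 levels were -0.40 on the NC1 array and -0.60 on the other, and the change was -0.20. Of 8 neuronal markers, 1 was well above background on each HCT116 array, 3 on the A549 NC1 array and 4 on the array of A549 with miR-891b, with summed levels of 0.853 to 0.912 in HCT116 and 8.40 to 8.81 in A549. The marker gained was NEFM, at -5.06 in A549 NC1 and 1.45 in A549 miR-891b, and its spot lay in an area of stray signal. SNAP25 was the brightest of the list in A549, at 2.72 with NC1 and 1.89 with miR-891b. The part of these markers in the TUBB3 and TUBB2B values was not tested.

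**Figure D2:**
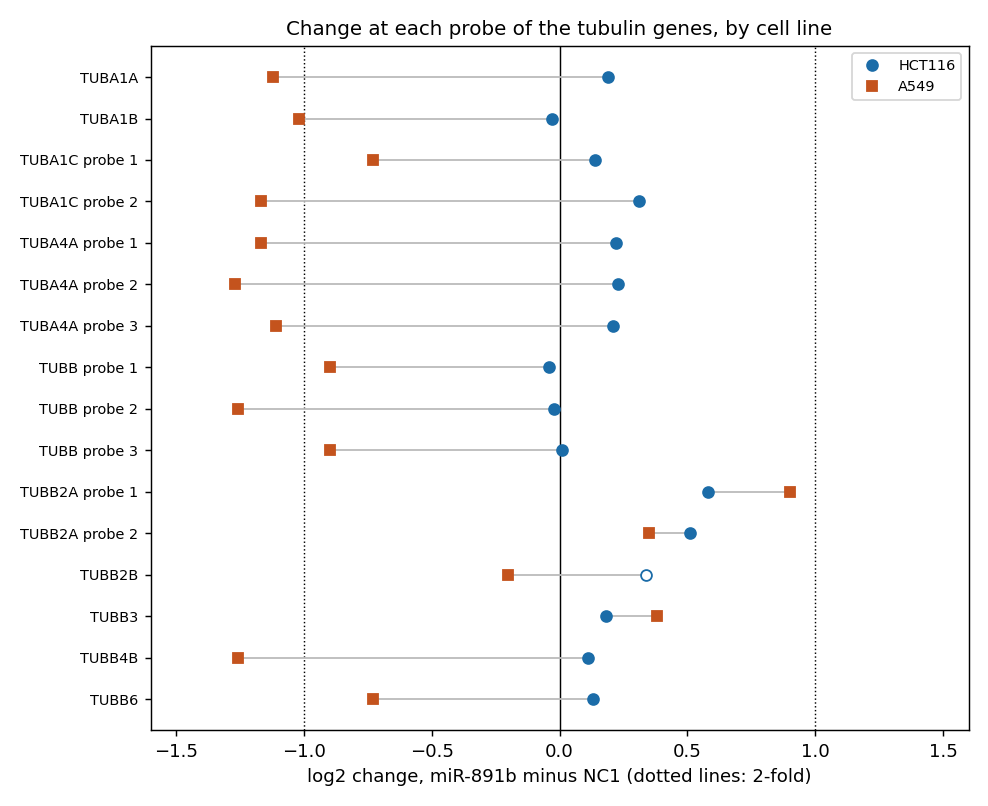
The log2 change (miR-891b minus NC1, x axis) is drawn for each of the 16 tubulin probes (y axis, brightest probe of a gene first), with HCT116 as blue circles and A549 as orange squares. Of the 16 probes, 8 lie at or beyond 2-fold lower in A549 and none in HCT116. The 8 include all 3 probes of TUBA4A. By brightest probe, 4 of 10 genes were at least 2-fold lower in A549, against 5.57% of all genes measured there. The TUBB2B circle is open because that probe was not well above background in HCT116.

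The lower tubulin signals in A549 stood beside a wider difference between both A549 arrays. The 10 proliferation genes MKI67, TOP2A, CCNB1, CCNA2, CDK1, BUB1, AURKA, PLK1, CDC20 and CENPF were each at least 2-fold lower with miR-891b in A549, with changes from -1.90 to -1.57 and a median of -1.74. In HCT116 the same genes changed by -0.20 to 0.20, with a median of 0.07. The spots of MKI67, CCNA2, CDK1, CDC20 and CENPF lay in areas where many otherwise dim spots were bright on 1 array (stray signal). That array could belong to either line. The spots of the tubulin genes did not lie in such areas. In A549, 8 of the 10 tubulin genes were below 0 as well, against 55.6% of all measured genes, while TUBB2A and TUBB3 were above 0. The part of cell division in the tubulin values was not tested. Fewer dividing cells and less RNA per cell cannot be told apart in bulk RNA. Of 8 fibroblast markers, 2 were well above background on each HCT116 array and 4 on each A549 array, and their summed level was 4.28 in A549 NC1 and 10.6 in A549 miR-891b, with 3 of the 4 measured genes below 0 and a median change of -0.31. LUM was higher by 2.14 and THY1 changed by -1.04. COL1A2, COL3A1, DCN and POSTN were not well above background in either line, and the part of these markers in the tubulin values was not tested.

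**Figure D3:**
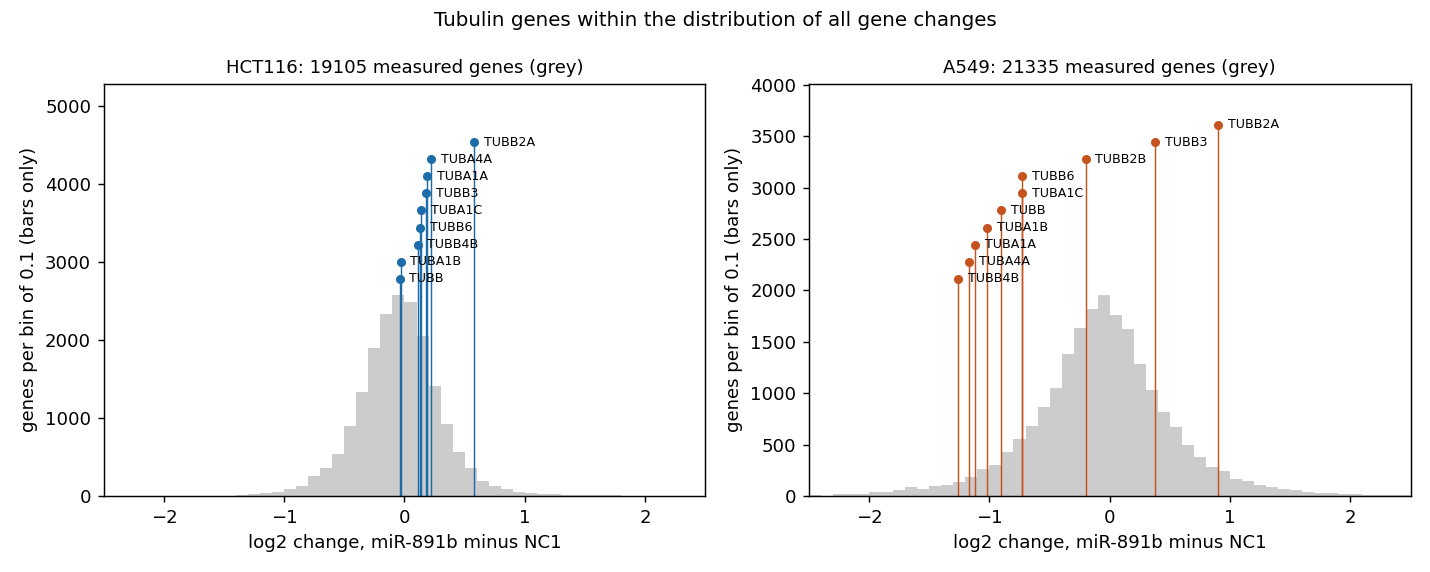
Grey bars count all measured genes by their log2 change (x axis, bins of 0.1) in HCT116 (left, 19105 genes) and A549 (right, 21335 genes), and each vertical line marks a measured tubulin gene at its change, its height serving only to separate the labels. In HCT116 the lines lie in the centre apart from TUBB2A at 0.58, and in A549 7 lines lie at or below -0.73.

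Over both lines, no tubulin gene passed the test for an effect of miR-891b. An additive limma model of transfection and line was fitted to 22712 genes over the 4 arrays, which leaves 1 residual degree of freedom. For transfection, 0 of the 10 genes and 0% of all genes passed 0.05 after Benjamini-Hochberg adjustment, while 1214 genes (5.35%) had an unadjusted p under 0.05. TUBB2A was the only member among the latter, with a fitted change of 0.74 (SE 0.24), higher in 2 of 2 lines, and a limma adjusted p of 0.793. Over the other settings its adjusted p from limma ran from 0.650 to 0.834. In the fit to 22712 genes, no gene had a limma adjusted p below 0.793 for transfection. TUBB4B had a fitted change of -0.57 (SE 0.41) with a limma adjusted p of 0.810, and its changes in the lines were 1.37 apart. The difference between the lines is what the fit takes as its error, and so it was not tested itself.

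Between the lines, TUBB2B was above background in A549 alone, and TUBB passed the test for the cell line in the same fit, as did 31.9% of all genes. TUBB2B was at -5.53 and -5.19 on the HCT116 arrays, not well above background, where the lowest levels marked as such were -3.55 and -3.14. Set against those levels in place of its own, it was 8.88-fold higher in A549 among NC1 arrays and 5.79-fold higher among miR-891b arrays. An unmarked probe can lie above the lowest marked level, so these are not strict bounds. It entered the fit only through the A549 arrays, so its p-value is not given as support. The fitted difference was 4.86, and 0.86 with normexp and quantile normalization, so its size depended on the processing. TUBB was lower in A549 (fitted difference -1.25, SE 0.31, limma adjusted p = 0.0471). This call was lost in 5 of 7 other settings, with adjusted p from limma between 0.0365 and 0.326 over all of them. The TUBB probes also disagreed: on the NC1 arrays the A549 minus HCT116 difference was -0.82, -0.68 and, at the probe at 30691905 to 30691964, -0.05.

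The remaining 8 genes had limma adjusted p-values of 0.0641 or more for the cell line. TUBB6 was nearest, with a difference of -1.09 (SE 0.31), and TUBB3 followed with -0.68 (SE 0.24, limma adjusted p = 0.0973). For TUBA4A the difference between the lines was 1.12 on the NC1 arrays and -0.28 on the miR-891b arrays at its brightest probe, and 1.52 and 0.19 at its dimmest, where the sign did not change. TUBA1A likewise went from 0.56 to -0.75. On the NC1 arrays TUBA1B differed by -0.06 and TUBB4B by 0.09. TUBA1C differed by -0.06 at its brighter probe and by 0.72 at the dimmer one. The signs of the fitted differences of TUBA1A, TUBA1B and TUBA1C turned positive after quantile normalization.

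The genes around tubulin were taken from lists written from general knowledge, with earlier results of these data known. Among 11 other tubulin genes on the array, only TUBA3C passed 2-fold in A549 (-1.14). Of the 10 measured in A549, 9 were below 0, with a median of -0.64. The gamma-tubulins TUBG1 (-0.93) and TUBG2 (-0.72), which nucleate microtubules, were among them, and TUBB4A (0.72) was the exception. The TUBG1 and TUBG2 probes were identical at 36 of 38 overlapping bases, and whether either bound both transcripts was not tested. In HCT116 the median was 0.08 over 10 genes and none passed 2-fold.

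Tubulin is folded by prefoldin, the chaperonin CCT and the tubulin cofactors. Of 21 such genes 20 were below 0 in A549, with a median of -0.50, and CCT7, a subunit of the chaperonin, was at least 2-fold lower (-1.15). The spots of CCT7 and CCT2 lay in areas of stray signal on an array of either line. The subunits CCT4 (-0.99) and CCT2 (-0.96) were just short of 2-fold, and TBCA, a cofactor that binds beta-tubulin, was at 0.04. The HCT116 median was -0.01, with no gene past 2-fold. Over all measured genes, 55.6% were below 0 in A549 and 55.5% in HCT116.

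The list for the autoregulated decay of tubulin mRNA had no gene past 2-fold in either line. TTC5, which recognises tubulin as it is made, changed by 0.18 in HCT116 and -0.61 in A549, and SCAPER, its partner, by 0.10 and 0.44. CNOT1, the scaffold of the deadenylase that removes the poly(A) tail, changed by 0.15 and -0.55. The list medians were 0.10 and -0.45 over 7 genes.

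Genes of tubulin modification had a median of 0.27 in A549 and -0.01 in HCT116 over 14 genes, none past 2-fold. In A549, 9 of 14 were above 0 and 5 below, so that 35.7% were below 0 against 55.6% of all measured genes. Above 0 were TTL (0.78), the ligase that restores the C-terminal tyrosine of alpha-tubulin, and SIRT2 (0.76), a tubulin deacetylase. ATAT1 (0.50), the alpha-tubulin acetyltransferase, was also above 0. Below 0 were HDAC6 (-0.22), also a tubulin deacetylase, TTLL12 (-0.29) and TTLL4 (-0.26). TTL also had a positive change in HCT116, at 0.58.

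Among 21 genes of microtubule binding and severing, TACC3 (-1.46), a spindle protein, and SPAST (-1.20), a severing enzyme, were lower by more than 2-fold in A549. MAPRE3 (1.25), a plus-end binding protein, was higher by more than 2-fold. These are 2 of 21 and 1 of 21 genes, beside the shares of 5.57% and 4% over all genes. In HCT116 these 3 changed by 0.37, 0.02 and -0.07, and none of the 20 measured genes passed 2-fold. The medians were -0.17 in A549 and -0.08 in HCT116. The 7 genes of the gamma-tubulin ring complex, which seeds new microtubules, had medians of -0.28 and -0.02, with none past 2-fold.

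**Figure D4:**
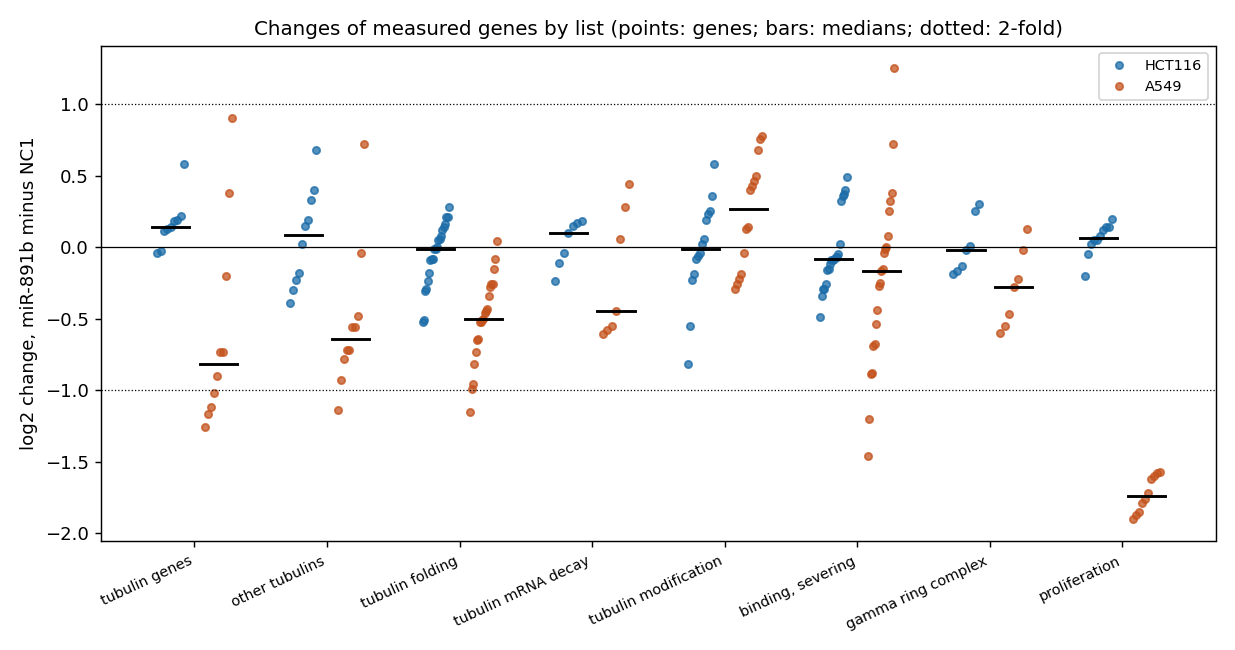
Points are measured genes, with their log2 change (miR-891b minus NC1) on the y axis, grouped on the x axis by list and split into HCT116 (blue) and A549 (orange); black bars are medians and dotted lines mark 2-fold. The A549 median is -0.81 for the tubulin genes, -0.64 for the other tubulins, -0.50 for folding, 0.27 for modification and -1.74 for proliferation, while the HCT116 medians lie between -0.08 and 0.14.

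The genes with the most similar pattern were ranked by Euclidean distance from the median profile of the 9 members well above background on all 4 arrays, after each gene was centred on its mean. Among 18054 other genes, CEP192, a scaffold protein of the centrosome, was nearest (distance 0.0597), followed by NSMCE2 (0.0642), DUSP19 (0.0700), AMZ2 (0.0724) and lnc-PDHX-1 (0.0763). CEP192 changed by 0.15 in HCT116 and -0.73 in A549, against 0.11 and -0.73 for the median profile. The profile rests on 4 values per gene.

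The 250 bases before the start of each member are given in RefSeq (GRCh38.p14) in 15 windows, as some genes have several starts. The windows of TUBB4B and TUBB2A are printed because these genes had the most negative and the most positive change in A549. Capitals mark the CCAAT box (CCAAT, searched on both strands), a motif common in promoters of cell cycle genes.
TUBB4B, chromosome 9, 137241037 to 137241286, plus strand: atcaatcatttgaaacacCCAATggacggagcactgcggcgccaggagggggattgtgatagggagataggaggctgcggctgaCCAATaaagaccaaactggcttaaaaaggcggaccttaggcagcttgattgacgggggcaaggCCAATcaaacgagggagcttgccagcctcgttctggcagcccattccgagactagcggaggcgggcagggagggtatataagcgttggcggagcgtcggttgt
TUBB2A, chromosome 6, 3157545 to 3157794, minus strand: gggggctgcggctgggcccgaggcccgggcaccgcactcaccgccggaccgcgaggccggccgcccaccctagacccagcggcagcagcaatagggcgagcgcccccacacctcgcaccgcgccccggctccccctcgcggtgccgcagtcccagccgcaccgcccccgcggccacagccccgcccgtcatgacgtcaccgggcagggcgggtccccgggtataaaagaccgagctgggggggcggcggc
TUBB4B held 3 CCAAT boxes and TUBB2A held 0. The motif was found in 9 of the 15 windows, belonging to 7 of the 10 genes, and in 32.0% of all 35116 windows of this length. That share counts windows, not genes. The TUBA1C windows at 49227676 to 49227925 and 49227769 to 49228018 overlap and share 1 CCAAT site, which is counted in both. TUBA1B and TUBA4A, both lower by more than 2-fold in A549, had none, and TUBB3, with a positive change, had 1, so the motif did not separate the genes by direction. The GC box GGGCGG was found in 5 copies for TUBB2A and 0 for TUBB4B, in 9 of the 15 windows, and in 42.6% of all windows. A match is a description of the sequence and does not show that a factor binds there.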

How the data were processed

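Cy3-labelled RNA was hybridised to Agilent 1-colour arrays and quantified with Agilent Feature Extraction 11.5.1.1, per the submitters' processing notes, and samples were grouped by title. The deposited scanner files hold linear intensity values, to which Feature Extraction applied spatial and multiplicative detrending within each array, per the file headers, with probe coordinates on hg19. The other deposited file holds the authors' processed log2 values, used as an alternative; how these were scaled is not given in the sources used here. The files also hold marks set by Feature Extraction for spots well above background and for outliers, per the file headers.

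Outlier spots were left out, spots of a probe were averaged on the log2 scale, and the array's 75th percentile over gene probes was subtracted. A change is miR-891b minus NC1, called at 2-fold. The additive model used limma 3.58.1 (lmFit, eBayes) in R 4.3.3 on genes well above background on at least 2 of 4 arrays, with Benjamini-Hochberg adjustment, and was tested on simulated data. Python 3.11.15 and pandas 2.3.3 gave the remaining values. A spot lay in an area of stray signal where, among spots up to 10 rows and 10 columns away, at least 10% of those dim elsewhere stood well above background. The largest such share around a tubulin probe was 8.15%. A probe counted as lying in such an area if it did so on any of the 4 arrays.

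Members and lists were chosen with earlier results of these data known. Named genes were all members, up to 4 genes per list past 2-fold in a line with the largest changes, and the 5 genes with the most similar profile. Other list genes were named for their role, after their values were seen. SVBP was read under its older symbol and TUBA3E was not matched. A comparison of probe sequences between alpha-tubulin genes is not reported here.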

Additional observations from a re-analysis of the deposited data

Results flagged for a closer look

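For 4 tubulin genes the change with miR-891b had opposite directions in the lines, with each change larger than 2 median spot SDs. The HCT116 changes were only 0.13 to 0.22, and 71.7% to 81.3% of genes measured there had a smaller value. The SD over all measured HCT116 genes was 0.38, and the 95th percentile of the spot SD was 0.117. The opposite directions thus rest on small HCT116 changes. The A549 change minus the HCT116 change was -1.31 for TUBA1A, -0.86 for TUBA1C, -1.39 for TUBA4A and -0.85 for TUBB6, each lower with miR-891b in A549 and slightly higher in HCT116. With 1 array per group these differences were not tested.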

How the results depend on the processing

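The labels give no replicate numbers, and the additive fit already pairs the transfections within each line. The median over the tubulin genes kept its direction in both lines under all 7 alternatives to the values or filters. In A549 it could not move without the filter on dim probes or without probes in areas of stray signal, as no tubulin value changed. In HCT116 it moved from 0.14 to 0.24 with normexp and quantile normalization and to 0.26 with quantile normalization. In A549 it moved from -0.81 to -0.51 and -0.53 under the same alternatives, and to -1.02 with the mean over probes, which leaves out TUBB2B. The A549 count of genes at least 2-fold lower went from 4 to 0 with normexp and quantile normalization, to 1 with quantile normalization and to 7 at 1.5-fold, and the count of higher genes from 0 to 1 in each of these. For the cell line term, counting TUBB2B, 1 gene in place of 2 passed with normexp and quantile normalization, quantile normalization, median scaling, the authors' values and, though TUBB6 replaced both, the mean over probes. Without a filter on dim probes, 6 genes in place of 0 passed for miR-891b, none of them a tubulin gene. The median of all HCT116 genes then shifted from -0.04 to 0.20, above the tubulin median of 0.16 in that setting.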
